A study of Mus musculus with 6 samples.

Results

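The D-type cyclins, the kinases they activate and the inhibitors that hold these kinases back were followed in mouse islets as a set of 10 genes, taken by gene symbol from the 41710 genes counted in each library. The set holds *Ccnd1*, *Ccnd2* and *Ccnd3*, the kinase genes *Cdk4* and *Cdk6*, the CIP/KIP inhibitor genes *Cdkn1a*, *Cdkn1b* and *Cdkn1c*, and the INK4 inhibitor genes *Cdkn2a* and *Cdkn2c*. The islets came from 3 WT mice and from 3 *Trpm7R/R* mice, which carry a knock-in mutation that inactivates the kinase of the channel TRPM7 in the whole body. All mice had been kept from 8 weeks of age on an HFD (45% of calories from fat) for 16 weeks, and each mouse gave 1 library, so no chow group stands beside these values. WT libraries bear the numbers 1, 2 and 3 and *Trpm7R/R* libraries the numbers 4, 6 and 8, and the comparison asks whether the genes that admit a cell to the cycle differed between the genotypes under the diet.

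D-type cyclins bind CDK4 or CDK6 in the G1 phase, and the active kinase phosphorylates the retinoblastoma protein, which releases E2F factors that switch on the genes of DNA replication. INK4 proteins bind CDK4 and CDK6 themselves and keep the cyclin away, whereas CIP/KIP proteins bind complexes of a cyclin with its kinase. In the mouse beta cell cyclin D2 and CDK4 are the members best known for sustaining postnatal growth, and p16, a product of *Cdkn2a*, is known to accumulate with age.

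Each library had between 17213285 and 20307909 mapped reads, of which between 1312128 and 2135466 lay in exons. Of these exon reads, 50.6% to 69.3% fell in 11 predicted genes of satellite type, so the totals say little about the depth of other genes. The label of the tissue was checked on 7 endocrine hormone genes, whose median exon density was 334 times the median density of intron reads. Reads that crossed an exon-exon junction, which can come only from spliced RNA, were few. Outside the mitochondrial chromosome and these 11 genes they made up 0.158%, 0.194% and 0.0917% of mapped reads in WT libraries 1, 2 and 3 and 0.0514%, 0.0348% and 0.0511% in *Trpm7R/R* libraries 4, 6 and 8. Every *Trpm7R/R* library thus held a smaller share of spliced reads than every WT library (2-sided exact permutation test, p = 0.1, the smallest that 3 against 3 allows). Intron reads made up between 75.7% and 84.2% of all gene reads, with no separation of the genotypes. *Trpm7R/R* libraries 6 and 8 had 59.8 and 44.2 intron reads of Y-linked genes per 1000000 mapped reads, against 558 to 754 in the other 4 libraries, so sex and genotype were partly mixed.

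Because so few reads came from spliced RNA, each member was first set against the background of its library, which was the median density of intron reads over 5181 autosomal genes whose introns span 50000 bases or more and lay between 3.75 and 4.91 reads per kilobase. *Ccnd2* was the only member with a mean exon density of at least 2 times this background, at 2.66 times over the 6 libraries. *Ccnd1* followed at 1.6 times and *Cdkn1b* at 1.56 times, and the other 7 members lay between 0.119 times for *Ccnd3* and 0.976 times for *Cdkn1c*. *Ccnd2* was also the only member with exon-exon reads in every library, 100 in all. *Ccnd3*, *Cdk4* and *Cdkn1a* had 2 each, all of them in WT library 1, *Ccnd1* and *Cdkn1b* had 1 each, and *Cdk6*, *Cdkn1c*, *Cdkn2a* and *Cdkn2c* had 0, where a count of 0 in 1 library allows up to 3 reads, or between 0.148 and 0.174 per 1000000 mapped reads. These limits and the counts beside them cover counting error only. For members at or below the background, exon reads could not be separated from unspliced or genomic sequence at this depth, and a low value does not show that the gene was silent.

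**Figure D1:**
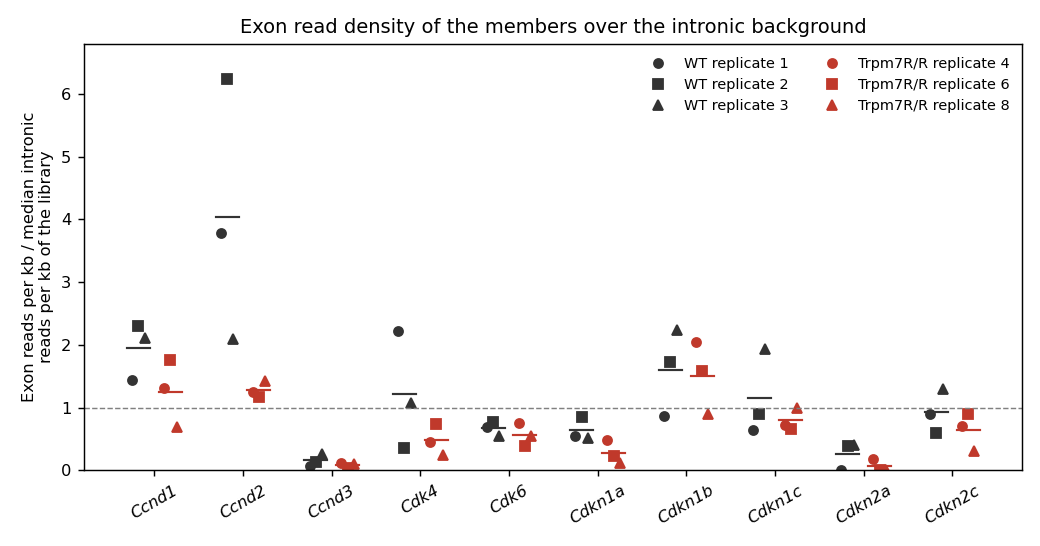
Exon reads per kilobase of each member divided by the median intronic reads per kilobase of the same library (vertical axis, linear). Points are libraries (black, WT replicates 1, 2 and 3; red, Trpm7R/R replicates 4, 6 and 8), short lines are group means of 3 libraries, and the dashed line marks the background itself. Ccnd2 stands highest in WT, between 2.09 and 6.24, and lies between 1.16 and 1.43 in Trpm7R/R, while Ccnd3 and Cdkn2a stay under 0.4 in all 6 libraries.

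Per length, the deposited RPKM values (exon reads relative to exon length and mapped reads) gave the order of the members. No background was subtracted from these values, so places at or near the background do not rank spliced RNA. In WT *Ccnd2* stood first at 0.966 ± 0.50 (SD, n = 3), followed by *Ccnd1* at 0.464 ± 0.10, *Cdkn1b* at 0.381 ± 0.16, *Cdk4* at 0.291 ± 0.23 and *Cdkn1c* at 0.274 ± 0.16. In *Trpm7R/R* *Cdkn1b* stood first at 0.372 ± 0.18, with *Ccnd2* at 0.311 ± 0.055 and *Ccnd1* at 0.299 ± 0.11 behind it. *Ccnd3* and *Cdkn2a* closed the order in both genotypes, with means of 0.0371 and 0.0620 in WT and 0.0207 and 0.0165 in *Trpm7R/R*. The ranges of neighbours in this order overlapped throughout, except those of *Cdkn1a* and *Cdkn2a* in WT, so the order holds between its ends rather than from step to step.

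Among the cyclins, *Ccnd2* encodes cyclin D2 and lies on chromosome 6, with 9409 bases of exon, and is overlapped by *Gm43126* and *9330179D12Rik* on the opposite strand. It had 163, 255 and 85 exon reads in WT libraries 1, 2 and 3 and 55, 41 and 66 in *Trpm7R/R* libraries 4, 6 and 8, where the background rate alone would have given between 35.3 and 46.2. All 3 *Trpm7R/R* libraries were thus near the background. In scaled reads all 3 also lay below the lowest WT library, as they did for 6.84% of the 11674 genes tested. Scaled counts were 164 ± 79.2 in WT and 54.3 ± 7.89 in *Trpm7R/R* (SD, n = 3). This was a log2 fold change of -1.59 ± 0.37 (SE), or 3.01-fold lower, with an adjusted p of 0.108 by edgeR's quasi-likelihood test. *Ccnd2* therefore missed the threshold, an adjusted p of at most 0.05 with at least a 2-fold change, and ranked 83 by p among the genes tested. A library with fewer cells that express *Ccnd2* and one with less *Ccnd2* RNA per cell cannot be told apart in such bulk samples.

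The difference leaned on WT library 2, which had the most *Ccnd2* reads and the largest share of spliced reads. Without it the log2 fold change was -1.13 with an adjusted p of 1.0. Without WT library 3 the value was -1.88 with an adjusted p of 0.0508 by edgeR's quasi-likelihood test. The same test gave -1.55 without WT library 1, with an adjusted p of 0.358. Without *Trpm7R/R* libraries 6 and 8 in turn it gave -1.48 and -1.64, with adjusted p of 0.541 and 0.477. Without *Trpm7R/R* library 4 the value was -1.57 with an adjusted p of 0.0383, a call, beside 196 of 12660 genes called. Library 4 resembled the WT libraries in its Y-linked reads and had 54.1 scaled *Ccnd2* reads, between the 46.6 of library 6 and the 62.3 of library 8. With 1 such *Trpm7R/R* library, sex and genotype cannot be fully told apart. With a term for sex read from those reads, *Ccnd2* had a log2 fold change of -1.598 with an adjusted p of 0.121.

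Intron and exon-exon reads of *Ccnd2* gave separate views of the same locus. Its introns had 11, 34 and 33 reads in WT and 36, 23 and 33 in *Trpm7R/R*, which overlapped, with a log2 fold change of 0.20 ± 0.45 (SE) and an adjusted p of 1.00 by edgeR's quasi-likelihood test. Junctions had 17, 51 and 10 exon-exon reads in WT and 8, 5 and 9 in *Trpm7R/R*, so the groups did not overlap. These were 1.41 ± 1.21 and 0.397 ± 0.099 reads per 1000000 mapped reads (SD, n = 3, 2-sided exact permutation test, p = 0.1), and 27.3% of the 2022 genes with at least 5 exon-exon reads lay lower in every *Trpm7R/R* library in the same way. *Ccnd2* was therefore one of many genes with this separation in spliced reads.

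Set against the spliced reads of its own library, *Ccnd2* had 5.73, 14.4 and 5.91 exon-exon reads per 10000 in WT and 9.04, 8.15 and 8.67 in *Trpm7R/R*. The *Trpm7R/R* values lay inside the WT range, and the group means were 8.68 ± 4.96 and 8.62 ± 0.44 (SD, n = 3, 2-sided exact permutation test, p = 1.0). This measure was added after the data had been seen, and the exon measures per 10000 spliced reads that follow were not in the plan. The spliced reads include those of 7 endocrine hormone genes, which had 41432 exon-exon reads over the 6 libraries. Each library held between 6133 and 35386 spliced reads in all. Scaled exon reads of these 7 genes were lower in every *Trpm7R/R* library than in any WT library. In measures per spliced read *Ccnd2* was thus partly compared with these genes. Exon reads beyond the density of its own introns, per 10000 spliced reads, were 53.2 ± 13.6 in WT and 44.6 ± 3.65 in *Trpm7R/R* and overlapped (p = 0.5, exact permutation test), whereas exon reads beyond the background of all long introns were 42.4 ± 17.3 and 13.4 ± 5.05 and did not (p = 0.1, the same test). By the latter measure 7 of the 10 members and 21.8% of the 11674 genes tested were lower in every *Trpm7R/R* library. Among these 7, the members other than *Ccnd2* had fewer exon reads than the background in every *Trpm7R/R* library. Dividing such a shortfall by fewer spliced reads makes it larger. These shares therefore cannot tell whether the separation was particular to *Ccnd2*, whose excess was positive in every library. The density of *Ccnd2* introns was 0.363 times that background on average, and the result per spliced read thus depended on which background was subtracted. Without the division by spliced reads, exon density over its own introns was 15.5 ± 11.5 in WT and 3.32 ± 0.44 in *Trpm7R/R* (SD, n = 3). The groups did not overlap (2-sided exact permutation test, p = 0.1). In this ratio 7.79% of the genes tested that had intron reads in every library were lower in every *Trpm7R/R* library.

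**Figure D2:**
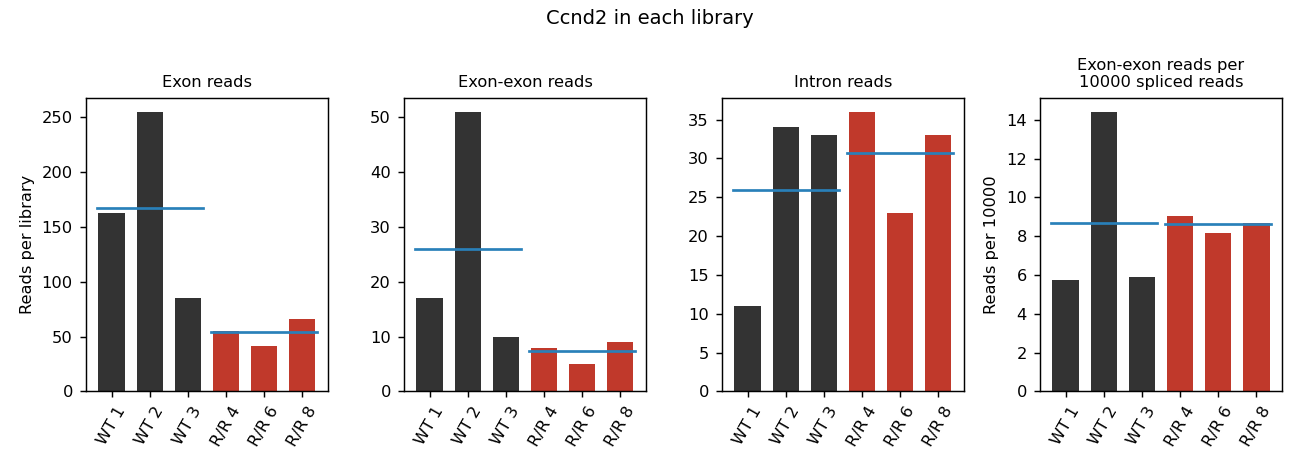
Ccnd2 in each of the 6 libraries (black, WT 1, 2 and 3; red, Trpm7R/R 4, 6 and 8), from left to right as exon reads, exon-exon reads, intron reads and exon-exon reads per 10000 spliced reads of the library; bars are single libraries and blue lines are group means of 3. Exon and exon-exon reads are lower in every Trpm7R/R library, while intron reads and the share of spliced reads overlap, with mean shares of 8.68 and 8.62 per 10000.

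The hormone genes of the islet shared the direction of *Ccnd2*. Each of the 7 endocrine hormone genes had fewer scaled reads in every *Trpm7R/R* library than in any WT library and 2 of them, *Ppy* and *Pyy*, were called lower, with summed RPKM values between 1090 and 2500 in WT and between 314 and 625 in *Trpm7R/R*. Of 10 beta cell markers, 3 of them hormone genes, 8 were lower in every *Trpm7R/R* library, 7 had a negative change with unadjusted p under 0.05 and 0 were called by edgeR's quasi-likelihood test, with a median log2 fold change of -1.65 and summed RPKM values between 748 and 1850 in WT and between 232 and 535 in *Trpm7R/R*. The beta cell list had a median exon density of 4.6 times the background, against 2625 times for *Ins2*. Its RPKM sum was thus weighted to hormone genes already counted, and the other markers were not summed apart. Markers of other cells did not separate the genotypes as these 2 lists did. Their summed RPKM values lay between 4.22 and 6.54 in WT and between 2.91 and 5.92 in *Trpm7R/R* for 14 acinar markers, between 1.19 and 2.21 and between 0.920 and 1.44 for 8 duct markers, between 1.27 and 1.65 and between 1.15 and 2.27 for 8 endothelial markers, between 1.6 and 2.06 and between 1.56 and 2.05 for 10 leukocyte markers, and between 1.82 and 2.20 and between 1.80 and 1.96 for 9 stromal markers. None of these markers was at 0 in all libraries, and of the 7 hormone genes and the markers of other cells only the hormone genes included a called gene. Markers under the filter could not be called, and only 3 of the 14 acinar and 4 of the 8 duct markers were tested. The same held for 6 of the 8 endothelial, 3 of the 10 leukocyte and 6 of the 9 stromal markers. Median exon densities of these lists lay between 0.68 and 1.04 times the background, so their sums say little about other cells. The part of cell composition and of the share of spliced reads in the *Ccnd2* difference was not tested.

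*Ccnd1*, the gene of cyclin D1 on chromosome 7, had 31, 47 and 43 exon reads in WT and 29, 31 and 16 in *Trpm7R/R*. The groups met at 31 reads, and the log2 fold change of -0.60 ± 0.38 (SE) had an adjusted p of 1.0 by edgeR's quasi-likelihood test. Only 72.1% of its exon reads mapped uniquely, between 58.1% and 72.1% in the WT libraries and between 82.8% and 87.5% in the *Trpm7R/R* libraries. Unique reads alone were 18, 28 and 31 in WT and 24, 27 and 14 in *Trpm7R/R*, with a log2 fold change of -0.18 ± 0.42, a smaller difference than with the reads that could also belong elsewhere in the genome. *Ccnd1* introns had 4 to 11 reads in WT and 7 to 19 in *Trpm7R/R*, and exon density over its own introns was 6.12 ± 2.28 in WT and 2.59 ± 0.88 in *Trpm7R/R* (SD, n = 3), without overlap (2-sided exact permutation test, p = 0.1). Of the genes tested that had intron reads in every library, 7.79% were lower in every *Trpm7R/R* library in this ratio, which for *Ccnd1* also counts the reads that did not map uniquely.

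*Ccnd3*, the gene of cyclin D3 on chromosome 17, was covered almost wholly in its introns. Exons had 3, 5 and 10 reads in WT and 5, 1 and 4 in *Trpm7R/R*, below the filter on low counts, and introns had 124, 183 and 204 in WT and 233, 135 and 152 in *Trpm7R/R*. Exon density was 0.328 ± 0.13 times that of its own introns in WT and 0.180 ± 0.096 times in *Trpm7R/R* (SD, n = 3), so the exons were covered less than the introns in all 6 libraries. The intron reads overlapped, with a log2 fold change of -0.0045 ± 0.26 (SE).

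*Cdk4*, the gene of the kinase partner of cyclin D2 on chromosome 10, had 33, 5 and 15 exon reads in WT and 7, 9 and 4 in *Trpm7R/R* and failed the filter. WT library 2, the richest in *Ccnd2*, had fewer *Cdk4* reads than 2 of the *Trpm7R/R* libraries. In the fit of all 31854 genes with at least 1 count the log2 fold change was -1.26 ± 0.54 (SE), with an adjusted p of 0.683 by edgeR's quasi-likelihood test, and without WT library 1 it was -0.41. Only 37.0% of the exon reads mapped uniquely, which left 11, 3 and 6 reads in WT and 3, 3 and 1 in *Trpm7R/R*, and the end of *Cdk4* overlaps *Tspan31* on the opposite strand. With 2 exon-exon reads in WT library 1 and 0 elsewhere, a difference in spliced *Cdk4* RNA was not detectable at this depth.

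*Cdk6*, the gene of the other kinase on chromosome 5, passed the filter on the strength of its 13989 bases of exon. It had 44, 47 and 33 exon reads in WT and 50, 20 and 37 in *Trpm7R/R*, which overlapped widely, and a log2 fold change of -0.18 ± 0.36 (SE) with an adjusted p of 1.0 by edgeR's quasi-likelihood test. Its introns had 561 to 638 reads in WT and 480 to 729 in *Trpm7R/R*, with a log2 fold change of 0.019 ± 0.16. Exon density was 0.866 ± 0.19 times that of its own introns in WT and 0.693 ± 0.17 times in *Trpm7R/R* (SD, n = 3), and with 0 exon-exon reads in 6 libraries spliced *Cdk6* RNA was not detected at this depth.

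Of the CIP/KIP genes, *Cdkn1b*, which encodes p27 on chromosome 6, was the best covered, with 18, 34 and 44 exon reads in WT and 44, 27 and 20 in *Trpm7R/R*. The genotypes spanned nearly the same range, and the log2 fold change was -0.03 ± 0.43 (SE) with an adjusted p of 1.0 by edgeR's quasi-likelihood test. All 187 reads mapped uniquely and no other gene overlaps the locus. *Cdkn1b* was thus the member whose exon density, 1.61 ± 0.69 times the background in WT and 1.51 ± 0.58 in *Trpm7R/R* (SD, n = 3), came closest to *Ccnd1* while its difference lay near 0.

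*Cdkn1a*, which encodes p21, the inhibitor induced by p53, had 9, 13 and 8 exon reads in WT and 8, 3 and 2 in *Trpm7R/R* and failed the filter. After scaling, the highest *Trpm7R/R* library had 7.21 reads against 7.5 in the lowest WT library, so the groups were apart by less than 1 read, as 5.49% of the genes with at least 1 count were apart in this direction. The log2 fold change was -1.09 ± 0.63 (SE) with an adjusted p of 0.938 by edgeR's quasi-likelihood test, and exon density was 0.638 ± 0.18 times the background in WT and 0.272 ± 0.19 times in *Trpm7R/R* (SD, n = 3, 2-sided exact permutation test on the log2 ratio, p = 0.1). With the sex term the log2 fold change of *Cdkn1a* was -0.41, and without *Trpm7R/R* library 4, which had 8 reads against 3 and 2 in the libraries with few Y-linked reads, it was -1.78. *Cdkn1c*, which encodes p57, had 6, 8 and 17 exon reads in WT and 7, 5 and 10 in *Trpm7R/R*, and the groups overlapped, with a log2 fold change of -0.36 ± 0.58 (SE). Its introns were covered more than its exons, at 2.93 ± 1.34 times the background in WT and 4.00 ± 2.45 times in *Trpm7R/R*, over only 673 bases of intron.

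Of the INK4 genes, both on chromosome 4, only *Cdkn2a* was at the lower end. Mean exon density was 0.161 times the background for *Cdkn2a* and 0.782 times for *Cdkn2c*. *Cdkn2a*, the gene of p16 and of the p53 activator ARF, had 0, 2 and 2 exon reads in WT and 1, 0 and 0 in *Trpm7R/R*, all within the 3 reads that a count of 0 allows, so no fold is given. Its introns had 12, 22 and 40 reads in WT and 15, 23 and 28 in *Trpm7R/R*. *Cdkn2c*, the gene of p18, had 11, 7 and 15 exon reads in WT and 9, 9 and 4 in *Trpm7R/R*, and its introns 11, 13 and 18 and 9, 9 and 12. Both readouts of *Cdkn2c* overlapped, with log2 fold changes of -0.44 ± 0.57 (SE) in exons and -0.50 ± 0.42 in introns.

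Over all 10 members, 4 passed the filter on exon reads (*Ccnd1*, *Ccnd2*, *Cdk6* and *Cdkn1b*) and 0 of these 4 were called by edgeR's quasi-likelihood test, beside 0.0257% of tested genes called lower and 0.0% called higher. Of these 4, *Ccnd2* alone was lower at an unadjusted p under 0.05, beside 4.57% of tested genes, and 0 were higher. *Cdk4*, under the filter, was also below an unadjusted p of 0.05 in the fit of all genes with at least 1 count. It ranked 1031 by p among the 31854 genes of that fit. DESeq2 and edgeR's likelihood ratio test each called 1 member, *Ccnd2*, with adjusted p of 0.0160 and 0.0102. These tests called 104 and 162 of the 11674 genes tested, and limma-voom called 0 members. The quasi-likelihood test of edgeR over all genes with at least 1 count also called *Ccnd2*, with a log2 fold change of -1.52 and an adjusted p of 0.0276. It called 141 of the 31854 genes. By intron reads 7 members passed the filter and 0 were called, beside 0.0% of 20921 genes, and 0 of the 7 had an unadjusted p under 0.05. The median log2 fold change of the 4 members tested was -0.39 by exon reads, beside 0.0055 for all genes tested.

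**Figure D3:**
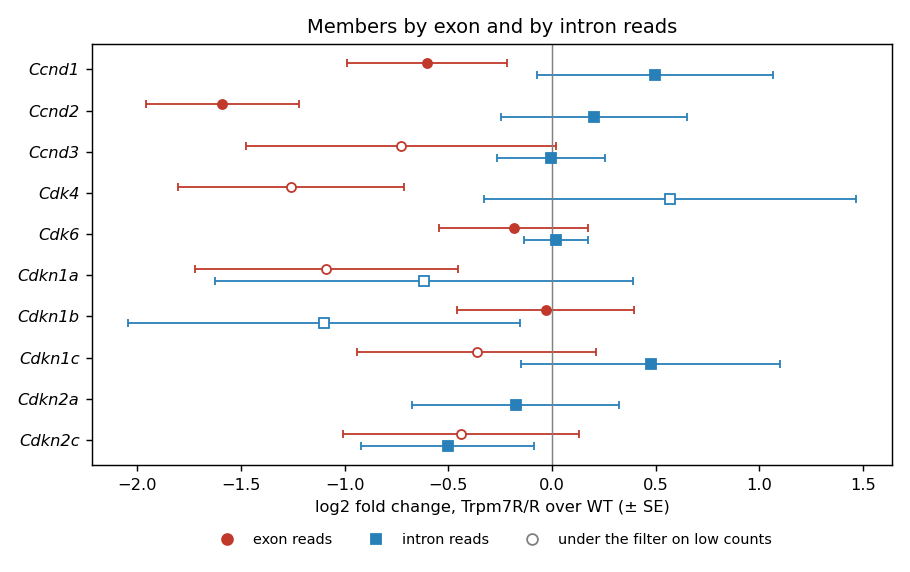
Log2 fold change of each member, Trpm7R/R over WT, by exon reads (red circles) and intron reads (blue squares), with bars of 1 SE from edgeR's quasi-likelihood fit of 3 against 3 libraries. Open symbols are members under the filter on low counts, taken from the fit of all genes with at least 1 count, and Cdkn2a has no exon value because both groups were within 3 reads of 0. Exon estimates lie to the left of 0, from -1.59 for Ccnd2 to -0.03 for Cdkn1b, while intron estimates fall on both sides, and the adjusted p of every estimate is above 0.05.

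The size of the *Ccnd2* difference depended on the scaling. Scaling by mapped reads gave a log2 fold change of -1.63 and by total exon reads -1.73, with adjusted p of 0.0801 and 0.165 by edgeR's quasi-likelihood test. Setting the libraries equal in the reads of 77 ribosomal protein genes gave -0.11 and scaling by exon-exon reads 0.12, with adjusted p of 0.842 and 0.827. Those 2 settings also moved the median of all genes tested to 1.34 and 1.58, so that relative to this median *Ccnd2* stood at -1.45 and -1.46. Against the median of all genes *Ccnd2* had a negative difference in every scaling, but a scaling shifts all genes by about the same amount. The similar differences were therefore fixed in advance and are no separate support. Against the ribosomal protein reads or the exon-exon reads of its own library *Ccnd2* lay near 0, with SEs of 0.50 and 0.52. The exon-exon reads include those of the endocrine hormone genes.

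**Figure D4:**
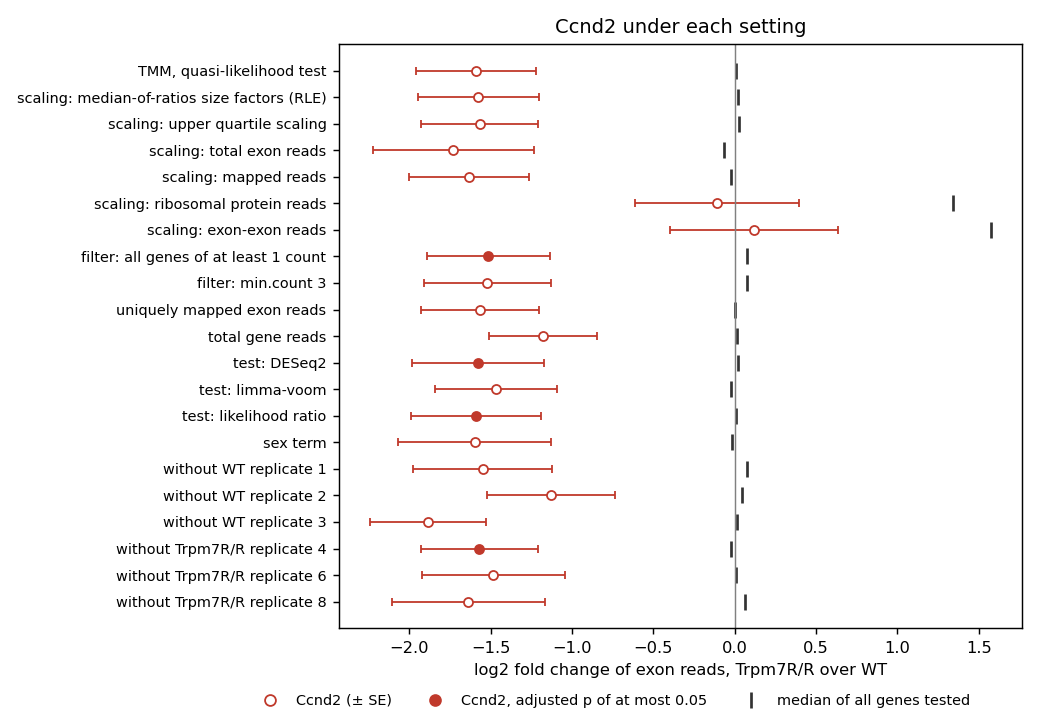
Log2 fold change of Ccnd2 exon reads, Trpm7R/R over WT, under each setting (circles with bars of 1 SE; filled where the adjusted p was at most 0.05), with the median of all genes tested under the same setting (black ticks). Most settings place Ccnd2 between -1.13 and -1.88 with the median near 0, and scaling by ribosomal protein reads or exon-exon reads shifts both to the right, to -0.11 and 0.12 for Ccnd2 and to 1.34 and 1.58 for the median.

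The genes whose scaled exon counts followed *Ccnd2* most closely over the 6 libraries were *Abcf1*, *Ntan1* and *Ubxn4*, with Pearson correlations of 0.99 for each, given as a description of libraries that also differ in their share of spliced reads. *Ubxn4*, which encodes a protein of the ER-associated degradation machinery, had 71, 114 and 44 exon reads in WT and 29, 20 and 40 in *Trpm7R/R*. Its order of libraries in WT was that of *Ccnd2*, and its log2 fold change was -1.32 ± 0.38 (SE). Since the gene was picked by this correlation, neither value is independent evidence.

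Downstream of the cyclins, the 13 genes of the RB family and of E2F factors were thinly covered, with a median exon density of 0.484 times the background beside 0.815 for the members. Of these, 7 were tested, 0 were called in either direction and 0 had an unadjusted p under 0.05, with a median log2 fold change of -0.26 beside 0.0055 for all genes tested. *E2f6*, a repressor of the family, had the smallest p with -0.64 ± 0.41 (SE), *E2f8* had 0.38 ± 0.42 and *Tfdp1*, an E2F partner, -0.39 ± 0.45. None of the 13 reached a mean exon density of 2 times the background. Among 28 genes of S phase and mitosis 13 were tested and 0 were called, with a median of 0.09. *Foxm1*, which drives genes of mitosis, had 1.05 ± 0.57 with 34 of its exon reads in *Trpm7R/R* library 4 and between 5 and 15 in the other libraries, *Pcna*, the replication clamp, had -0.56 ± 0.39, and *Ccnb1*, the mitotic cyclin B1, -0.60 ± 0.44.

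Among 23 other cyclins, CDKs and inhibitors 15 were tested, 0 were called and the median log2 fold change was -0.29. *Ccny* had the smallest p with -0.68 ± 0.39 (SE), followed by *Ccnc*, a cyclin of the Mediator complex, with -0.59 ± 0.35 and *Ccnl2* with -0.59 ± 0.41. Of 40 regulators of D-type cyclins and of CDK inhibitors 31 were tested and 0 were called by edgeR's quasi-likelihood test. At an unadjusted p under 0.05 there were 2 lower genes and 0 higher ones, beside 4.57% of the 11674 genes tested lower. The median was 0.01. *Pdx1*, a transcription factor of beta cells, had 20, 27 and 20 exon reads in WT and 9, 12 and 7 in *Trpm7R/R*. These did not overlap, as in 6.84% of all genes tested, with -1.19 ± 0.43 and an adjusted p of 0.513. Its mean exon density was 1.68 times the background, with 2 exon-exon reads, both in WT library 2. *Tsc2*, an inhibitor of mTORC1 signalling, had -1.11 ± 0.49 and *Foxo3*, a factor restrained by AKT, 0.76 ± 0.41.

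The cell cycle list that the study drew from these same libraries holds 9 genes, of which 4 were tested, 0 were called and all 4 had negative log2 fold changes with a median of -0.94. Since the list was chosen on these samples, its direction is no independent evidence. Beside *Ccnd2*, *Cdk5rap3* had -1.13 ± 0.46 (SE), *Kmt2e*, a chromatin protein, -0.75 ± 0.38 and *Cdk19*, a kinase of the Mediator complex, -0.59 ± 0.46, with adjusted p between 0.662 and 1.0 by edgeR's quasi-likelihood test.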

How the data were processed

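Islet RNA was measured in 1 library per mouse, grouped by the labels. The authors mapped the reads and deposited raw counts per gene (exon, intron and exon-exon reads, total and unique) and RPKM values. The submitters' notes name the build mm10, but positions in the deposited counts differ from GRCm38, so only chromosomes are given. The aligner and strandedness were not given in the sources used here, and genes on the opposite strand overlap 7 members. The authors' own comparison columns (fold changes, p-values) were not used.

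Exon and intron counts of all genes were fitted with edgeR 4.0.16 in R 4.3.3 (quasi-likelihood test, TMM, filterByExpr with a minimum of 10 counts, genotype as the only term, Benjamini-Hochberg adjustment over all genes kept). Calls needed adjusted p ≤ 0.05 and a 2-fold change. Scaled counts are counts over relative effective library size. Members under the filter take values from a fit of genes with at least 1 count. Other tests were 2-sided exact permutation tests. Alternatives covered scaling, filters, read classes, DESeq2 1.42.0, limma 3.58.1, a sex term and leaving out each library. The fits were tested on simulated data. Members and lists were chosen with earlier results of these data known. The text names the 10 members, up to 3 other genes of each pathway list with the smallest p, and the 3 genes most correlated (log2 CPM, prior count 2) with each tested member of at least 2 times the background. P-values measure the spread between these 6 mice.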

Additional observations from a re-analysis of the deposited data

How the results depend on the processing

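Counts of genes called by exon reads, 3 by TMM scaling, were 30 by upper quartile, 23 by total exon reads, 46 by mapped reads, 7257 by ribosomal protein reads, 9227 by exon-exon reads, 141 with all genes of at least 1 count, 0 with a minimum of 3 counts, with total gene reads and with a sex term, 104 by DESeq2 and 162 by the likelihood ratio test. Without 1 library they ranged from 0 to 196, the latter without *Trpm7R/R* library 4. Members called, 0, became 1 (*Ccnd2*, lower) with all genes of at least 1 count, by DESeq2, by the likelihood ratio test and without *Trpm7R/R* library 4 (range 0 to 1), 1 by ribosomal protein reads (*Cdkn1b*, higher) and 2 by exon-exon reads (*Cdk6* and *Cdkn1b*, higher). Intron calls ranged from 0 to 308 without 1 library, again highest without library 4.

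Directions turned mainly where scaling moved the median of all genes. By ribosomal protein reads log2 fold changes were 0.77 for *Ccnd1*, 0.42 for *Ccnd3*, 1.16 for *Cdk6*, 0.23 for *Cdkn1a*, 1.26 for *Cdkn1b*, 0.78 for *Cdkn1c* and 0.74 for *Cdkn2c*. By exon-exon reads they were 1.00 for *Ccnd1*, 0.12 for *Ccnd2*, 0.58 for *Ccnd3*, 0.27 for *Cdk4*, 1.40 for *Cdk6*, 0.47 for *Cdkn1a*, 1.46 for *Cdkn1b*, 0.93 for *Cdkn1c* and 0.99 for *Cdkn2c*. *Cdk6* turned with total gene reads (0.0497) and the sex term (0.27), *Cdkn1b* with all genes (0.0431), a minimum of 3 counts (0.0353), the sex term (0.45) and its own introns as background (0.91), *Cdkn1c* with total gene reads (0.0347), and the introns of *Ccnd3* by mapped reads (0.05). Exon-exon reads of *Ccnd2* per spliced read turned to 0.13 on the log2 scale.

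Without 1 library, exon values ranged from -0.47 to 0.0506 for *Cdk6*, -0.35 to 0.30 for *Cdkn1b* and -0.63 to 0.10 for *Cdkn1c*. Intron values ranged from -0.14 to 0.46 for *Ccnd2*, -0.22 to 0.14 for *Ccnd3*, -0.20 to 1.19 for *Cdk4*, -0.0609 to 0.10 for *Cdk6* and -0.49 to 0.35 for *Cdkn2a*. Exon densities over background ranged from -0.46 to 0.27 for *Cdkn1b* and -0.76 to 0.0363 for *Cdkn1c*, and exon-exon reads of *Ccnd2* from -2.03 to -0.85. No cause was tested. The study used littermate controls, but the labels give no litter, so no paired analysis was possible. Members other than *Ccnd2* had at most 2 exon-exon reads each, so differences in their spliced RNA were not detectable.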
